A study of Bos taurus with 14 samples.

Results

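The genes described here set Day-4 bovine embryos kept in culture apart from Day-4 embryos that spent the same time in the oviduct of a cow. A gene was included when its level in all 3 cultured libraries lay at least 2-fold above, or at least 2-fold below, its level in all 6 oviduct libraries. The level was CPM, the count of a gene divided by the total count of its library and scaled to a common total. Every library of the higher side had to reach at least 5 CPM, the mean of the lower side at least 0.5 CPM and the Day-2 mean at least 1 CPM. Genes at 150 CPM or more in every library, genes of the list of energy-related genes that the study assembled, histones in the lists at hand and 1 block of mitochondrial gene IDs were left out. Of 27607 Ensembl genes in the count table, 21790 had a count and 99 met the rule, 52 with the higher level in both oviduct groups and 47 with the higher level in culture. Because these genes were selected on the difference between culture and oviduct, that difference is described below and supports nothing by itself.

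All embryos were produced in vitro from abattoir oocytes with semen of 1 bull, and each library was a pool of 5 embryos. On Day 2 (5 libraries), embryos at the 4-cell stage were taken from culture. On Day 4, 16-cell embryos came from continued in vitro culture (IVC, 3 libraries) in synthetic oviduct fluid with bovine serum albumin, or had been transferred on Day 2 into the oviducts of postpartum Holstein-Friesian cows and flushed out on Day 4. These cows had either been dried off at calving (DRY, 3 libraries) or milked (LACT, 3 libraries), and the 5 embryos of each oviduct pool came from the same cow. Only embryos that reached the 16-cell stage were pooled, no pool was made of embryos conceived in a cow, and all 4 groups share the abattoir oocytes and in vitro fertilization.

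The early embryo lives on transcripts that the oocyte stored, and these are degraded over the first cleavages while its own genome is switched on, a step called embryonic genome activation (EGA). In cattle this switch falls largely between the stages sampled on Day 2 and Day 4. The oviduct normally surrounds the embryo at that time with a fluid that carries nutrients, hormones, proteins and vesicles, which a defined culture medium replaces only in part. A Day-4 level can therefore hold stored transcript that is still present, transcript made by the embryo, or both, and counts of whole embryos do not part them. Nor can fewer cells with a transcript be told apart from less of it per cell.

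Total counts ranged from 22711367 to 40357379 per library, so that 3 counts, taken here as the limit of detection, equalled 0.0743 to 0.132 CPM. In each Day-4 group 1 library lay at about the mean of the others. IVC replicate 1 was the middle IVC library in all 99 genes and within 5% of the mean of the others in 94, DRY replicate 3 was in the middle in 92 and within 5% in 78, and LACT replicate 3 was in the middle in 94 and within 5% in 87. The other 6 Day-4 libraries lay within 5% of the mean of their group's other libraries in 7 to 14 of the genes. It is therefore doubtful that these 3 are libraries independent of the others, and an SD given with n = 3 or an FDR on 9 or 14 libraries counts them as if they were. On Day 2, replicates 1 and 5 lay on opposite sides of the mean of replicates 2, 3 and 4 for 92 of the 99 genes, and the mean of that pair lay within 1.1-fold of the mean of the others for 79. Over 7998 genes with a Day-2 mean of at least 5 CPM, the pair lay on opposite sides for 96.6%, against 39.1% to 54.1% for the other 9 pairs of Day-2 libraries. Each main test is given also without these libraries, on 6 Day-4 libraries or on 3 Day-2 and 6 Day-4 libraries. Markers of cumulus, oviduct or blood cells could not be checked, because the table names genes by Ensembl ID and no source at hand pairs those IDs with symbols, so only a few IDs are printed.

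The gap between the sides, defined as the lowest library of the higher side divided by the highest library of the lower side, had a median of 2.55 in the 52 genes higher in the oviduct (range 2.01 to 7.12) and of 2.52 in the 47 genes higher in culture (range 2.01 to 20.4). It reached 3 in 18 and 17 of them, and 4 in 8 and 11. Many members lay close to the threshold. The genes just inside it had gaps of 2.01 and 2.01 among those higher in the oviduct and of 2.01 and 2.05 among those higher in culture, while the genes just outside had gaps of 1.98 and 1.998, and of 1.98 and 1.98. The number of members moved with single libraries, to 184 without IVC replicate 2, 180 without IVC replicate 3 and 157 without DRY replicate 1. Leaving a library out can only keep or widen a gap, so such numbers mostly rise. For scale, the same rule with DRY in the place of IVC found 49 genes higher and 59 lower in DRY, and with LACT in that place 79 higher and 22 lower in LACT.

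**Figure D1:**
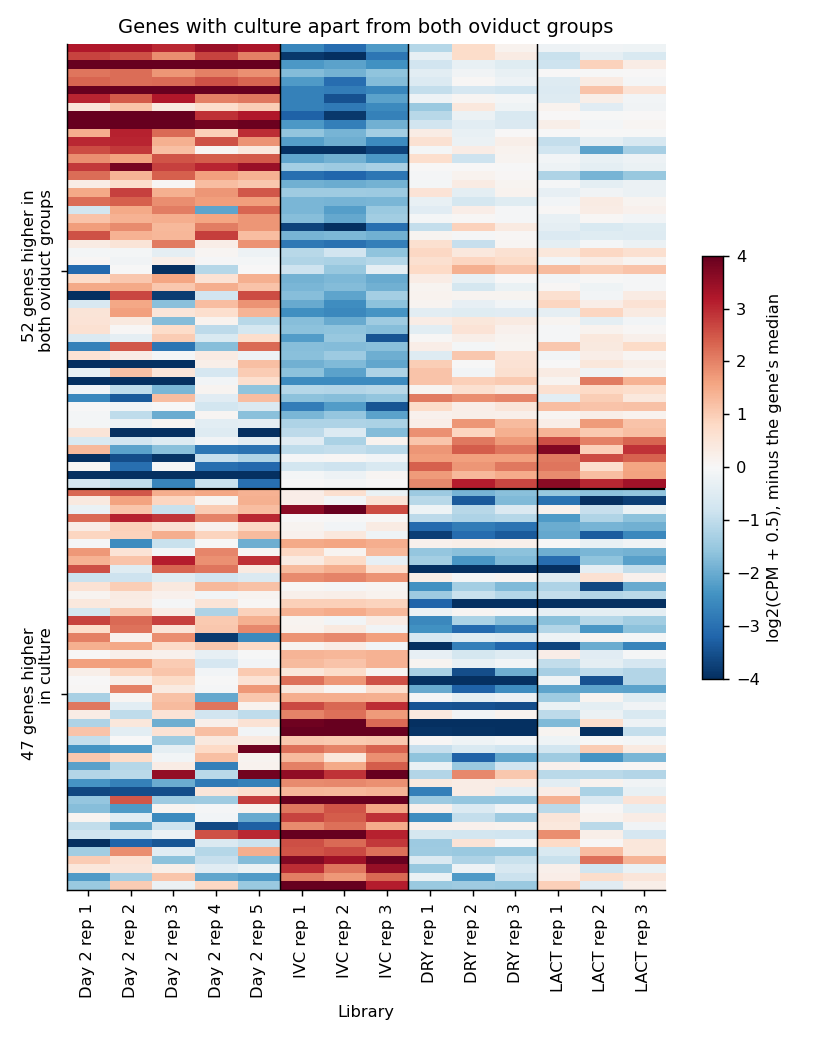
Levels of the 99 genes (rows, ordered within each part by falling Day-2 mean) in the 14 libraries (columns), as log2(CPM + 0.5) minus the median of the gene. IVC libraries are low in the upper 52 genes and high in the lower 47, which the rule fixed, and the Day-2 mean exceeds that of every Day-4 group in 30 of the upper and 14 of the lower genes.

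Over the 52 genes higher in the oviduct, the group means had medians of 3.52 CPM for IVC, 18.6 CPM for DRY, 17.1 CPM for LACT and 30.9 CPM for Day 2. The median ratio of the oviduct mean to the IVC mean was 5.03 (range 2.57 to 21.7). In the 47 genes higher in culture, the corresponding medians were 31.2 CPM in IVC, 2.76 CPM in DRY, 4.64 CPM in LACT and 17.8 CPM on Day 2, and the IVC mean was 5.82 times the oviduct mean in the median gene (range 2.27 to 122). All 52 genes higher in the oviduct remained above 3 counts in some IVC library, and 1 of them had an IVC mean under 1 CPM. Among those higher in culture, 14 had a DRY mean and 4 a LACT mean under 1 CPM.

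Summed over the 52 genes, the Day-4 libraries held 375 ± 42.8 CPM in IVC, 1743 ± 174 CPM in DRY and 1702 ± 18.1 CPM in LACT (SD, n = 3 each), and the Day-2 libraries 5055 ± 399 CPM (SD, n = 5). The sum over the 47 genes higher in culture was 3060 ± 580 CPM in IVC, 471 ± 29.5 CPM in DRY and 495 ± 3.89 CPM in LACT (SD, n = 3 each), and 1322 ± 126 CPM on Day 2 (SD, n = 5). Without the library at the mean, the SDs over 2 libraries were 60.6 CPM in IVC, 245 CPM in DRY and 24.96 CPM in LACT for the first sum, and 821, 41.7 and 3.15 CPM for the second. On Day 2 every library lay above every Day-4 library in the first sum and between IVC and the oviduct groups in the second. One gene held 329 to 988 CPM of the second sum in IVC, and without it the IVC libraries still held 2152 to 2654 CPM.

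**Figure D2:**
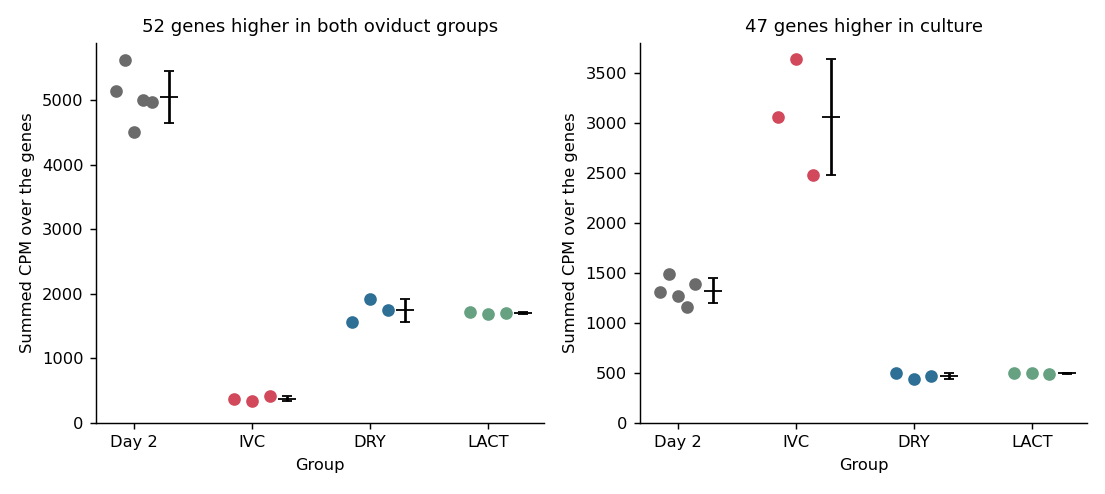
Summed CPM (vertical axis, from 0) over the 52 genes higher in both oviduct groups (left) and the 47 genes higher in culture (right), with 1 point per library, the group mean as a bar and its SD as whiskers. Day-2 libraries (4517 to 5630 CPM) stand above all Day-4 libraries on the left, and on the right (1154 to 1491 CPM) they lie between IVC and the 2 oviduct groups.

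The widest gap among the genes higher in the oviduct belonged to ENSBTAG00000025443, which the term lists of the study place under enzyme binding. Its level was 0.999, 1.65 and 0.440 CPM in the 3 IVC libraries, 16.3, 11.8 and 13.9 CPM in DRY, and 23.5, 21.8 and 22.6 CPM in LACT. The Day-2 libraries held 9.75, 9.01, 9.66, 5.67 and 6.32 CPM. All 5 Day-2 libraries thus lay above every IVC and below every oviduct library, and the DRY and LACT libraries did not overlap, although that difference did not pass the test (log2 difference -0.59, SE 0.49, FDR 0.488, and 0.995 on 6 libraries).

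ENSBTAG00000007678, with the next widest gap, had uneven Day-2 pools. It was at 2.89, 2.90 and 2.86 CPM in IVC, at 42.2, 37.2 and 39.2 CPM in DRY, and at 20.2, 80.1 and 49.6 CPM in LACT. On Day 2 the libraries read 0, 0.0352, 0.0332, 17.4 and 29.9 CPM, so 3 pools had at most 1 count and the other two held more than any IVC library.

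Both widest gaps among the genes higher in culture came with oviduct levels close to 0. ENSBTAG00000017662, placed under kinase in the term lists, was at 51.9, 52.3 and 49.6 CPM in IVC, at 2.43, 0 and 1.12 CPM in DRY, and at 0.0381, 0.0334 and 0 CPM in LACT. Its Day-2 libraries held 35.9, 33.1, 25.9, 38.4 and 27.5 CPM. The transcript was thus counted in every 4-cell pool, at a level below that of every cultured 16-cell pool and above that of every oviduct pool, and the 3 LACT libraries together held 2 counts of it. The pooled IVC level was 2068 times the pooled LACT level. That ratio rests on these 2 counts, and reads copied from 1 molecule are not independent. It also lies on the contrast that chose the gene, so nothing is read from its size.

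For ENSBTAG00000013336, listed under magnesium, the levels were 76.0, 66.9 and 84.3 CPM in IVC, 0.0319, 0 and 0 CPM in DRY, and 3.36, 0.501 and 1.60 CPM in LACT. Day-2 pools held 0, 7.63, 0.0332, 0.0359 and 9.55 CPM. Every IVC library exceeded every library of the other 3 groups, and the 3 DRY libraries together held 1 count.

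**Figure D3:**
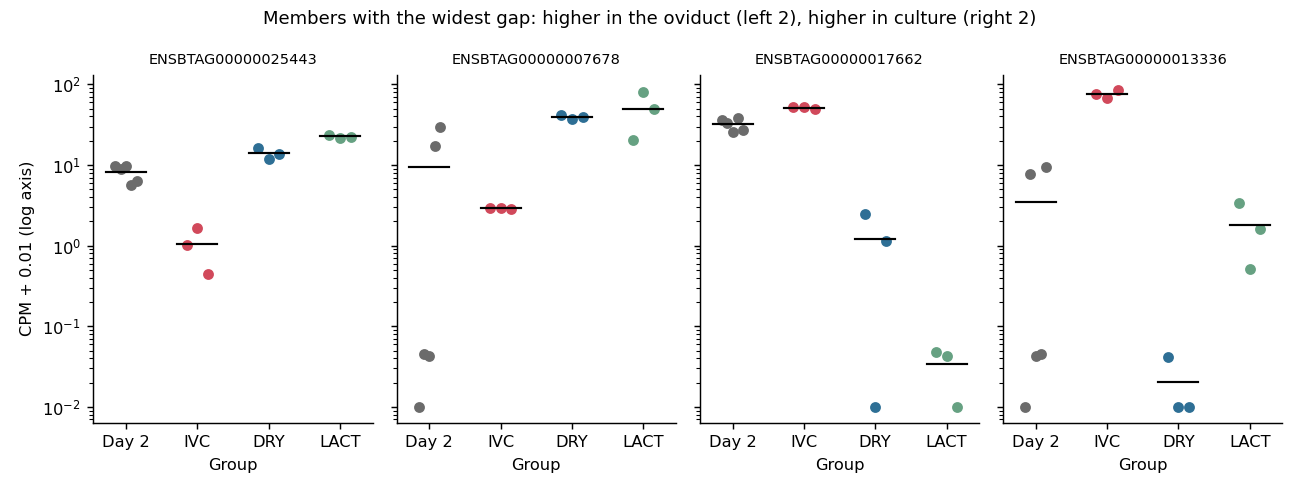
Levels of the 4 genes with the widest gaps, as CPM + 0.01 on a log axis, by group, with 1 point per library and the group mean as a bar. IVC points lie below all DRY and LACT points in the 2 panels on the left and above them in the 2 on the right, and Day-2 points of ENSBTAG00000007678 and ENSBTAG00000013336 fall into pools near 0 and pools above 5 CPM.

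The rule used Day-2 levels for a minimum on their mean and for leaving out genes at 150 CPM or more in every library. The Day-2 mean was above the mean of every Day-4 group in 30 of the 52 genes higher in the oviduct, between them in 15 and below them in 7. In those 30 genes the median level was 92.1 CPM on Day 2, 16.9 CPM over the oviduct libraries and 3.52 CPM in IVC, and the Day-2 mean was 18.9 times the IVC mean and 4.70 times the oviduct mean in the median gene. In the 15 genes between, the Day-2 median was 9.96 CPM, against 2.88 CPM in IVC and 19.7 CPM in the oviduct. In the 7 genes below, it was 2.07 CPM, against 4.23 CPM in IVC and 35.3 CPM in the oviduct. Genes higher in the oviduct on Day 4 thus included transcripts that were more abundant on Day 2 than in any Day-4 group and transcripts that were scarce on Day 2.

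Of the 47 genes higher in culture, 14 had a Day-2 mean above every Day-4 group, 25 between them and 8 below. The 14 genes had a median of 39.9 CPM on Day 2, 18.5 CPM in IVC and 3.51 CPM in the oviduct, and their Day-2 mean was 1.91 times the IVC mean and 14.1 times the oviduct mean in the median gene. In the 25 genes between, the medians were 11.9 CPM on Day 2, 37.9 CPM in IVC and 2.25 CPM in the oviduct. The 8 genes below had medians of 4.41 CPM on Day 2, 43.8 CPM in IVC and 10.4 CPM in the oviduct. On a log scale, 41 of the 52 genes higher in the oviduct had a Day-2 mean nearer the oviduct mean than the IVC mean. So did 24 of the 47 genes higher in culture. These positions of the Day-2 mean were not counted over all genes. The rule set a higher minimum on the Day-2 mean than on the lower side, which can bring Day 2 nearer to the higher side. Which side kept closer to the Day-2 level is therefore not read from these counts.

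The stages were fully separated in fewer genes. Every Day-2 library lay above every Day-4 library in 21 of the 52 genes and in 8 of the 47 genes, and this was so in 23.6% of the 13390 genes that reached 1 CPM in 3 libraries or more. Every Day-2 library lay below every Day-4 library in 3 of 52 and 2 of 47, against 18.4% of those genes. Those genes had no minimum on the Day-2 mean, whereas members had to reach 1 CPM, which can leave out genes scarce on Day 2. Without this minimum the rule found 135 genes in place of 99, so the members are not compared with these shares. The remaining 28 and 37 members overlapped between Day 2 and Day 4, so that most genes higher in culture had some Day-2 pool within the range of Day 4.

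**Figure D4:**
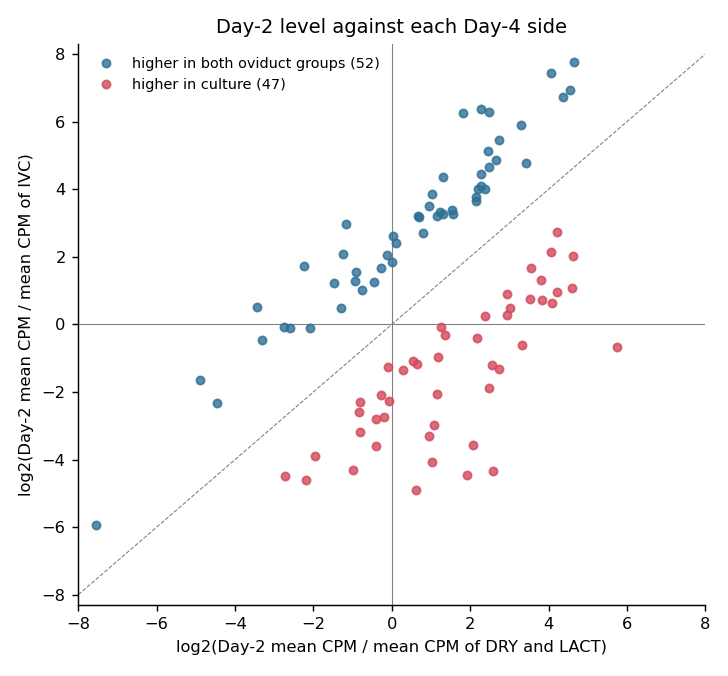
For each of the 99 genes, the log2 ratio of the Day-2 mean CPM to the IVC mean (vertical axis) against the log2 ratio of the Day-2 mean to the mean of DRY and LACT (horizontal axis), with the line of equal ratios dashed. The rule places the genes higher in the oviduct above the dashed line and those higher in culture below it, and along the line both sets extend from genes well above to genes well below the Day-2 level, with 30 and 14 genes whose Day-2 mean exceeds every Day-4 group.

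Day 2 was next compared with each Day-4 side by edgeR quasi-likelihood tests over all genes, with Benjamini-Hochberg adjustment (FDR, threshold 0.05). The Day-4 side of each comparison is one the rule used and both share the Day-2 libraries, so the counts, and the differences of single members given after them, are descriptions from which nothing is read. Of the 52 genes higher in the oviduct, 34 were lower and 2 higher in IVC than on Day 2, where over all 13390 genes tested 25.2% were lower and 29.7% higher. Of the 47 genes higher in culture, 22 were higher and 3 lower in IVC. On 3 Day-2 and 6 Day-4 libraries the counts were 26 lower and 1 higher, and 14 higher and 1 lower, with 15.2% of 12233 genes lower and 19.3% higher. The median fitted log2 difference, IVC minus Day 2, was -2.81 and 1.66 in the 2 sets, beside 0.08 over all genes tested.

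Against the mean of DRY and LACT, 21 of the 52 genes were lower and 12 higher on Day 4 than on Day 2, and 24 of the 47 genes were lower and 5 higher. Over all genes tested, 30.6% were lower and 29.5% higher. With 3 Day-2 and 6 Day-4 libraries, the members called were 18 lower and 6 higher, and 19 lower and 2 higher, where 23.6% of all genes were lower and 20.9% higher. The ratio of the Day-2 mean to the oviduct mean had a median of 1.98 in the 52 genes and 2.57 in the 47. Over the 13390 genes it was 1.06. For the ratio of the Day-2 mean to the IVC mean, the medians were 9.45, 0.414 and 1.23 in the same order. Only members had to meet the minimum on the Day-2 mean, so their medians are not compared with those of all genes.

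The gene with the highest Day-2 CPM of the set (not corrected for gene length), ENSBTAG00000021487, was lower on both sides on Day 4, with IVC below the oviduct groups as the rule requires. It was at 825, 859, 733, 987 and 855 CPM on Day 2, at 14.3, 10.4 and 18.4 CPM in IVC, at 39.9, 148 and 99.0 CPM in DRY, and at 77.7, 80.5 and 78.8 CPM in LACT. No Day-4 library approached a Day-2 library, and the lowest DRY library was 2.17 times the highest IVC library. The fitted log2 difference from Day 2 was -5.54 in IVC (SE 0.41) and -2.98 in the oviduct groups (SE 0.27). On 3 Day-2 and 6 Day-4 libraries it was -5.64 (SE 0.62) and -3.11 (SE 0.41).

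The opposite order was seen for the gene with the highest oviduct CPM, ENSBTAG00000052938. Its Day-2 levels were 2.59, 0.281, 0.432, 3.19 and 0.266 CPM, and by Day 4 it stood at 82.7, 74.4 and 90.6 CPM in IVC, 282, 214 and 245 CPM in DRY, and 324, 204 and 263 CPM in LACT. All 9 Day-4 libraries exceeded all 5 Day-2 libraries, and IVC took the lowest place among the Day-4 groups. The fitted log2 difference from Day 2 was 6.23 in IVC (SE 0.76) and 7.83 in the oviduct groups (SE 0.78). With 3 Day-2 and 6 Day-4 libraries, the values were 6.21 (SE 0.92) and 7.82 (SE 0.96).

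Among the genes higher in culture, ENSBTAG00000002510 reached the highest CPM on Day 4 and is listed as a phosphoprotein of the nucleoplasm. Its levels were 651, 988 and 329 CPM in IVC, 46.7, 24.1 and 35.1 CPM in DRY, 59.9, 27.6 and 43.6 CPM in LACT, and 43.4, 115, 28.2, 108 and 124 CPM on Day 2. The 3 IVC libraries, though spread over a wide range, stood above all others, and the Day-2 libraries overlapped those of the oviduct groups. Relative to Day 2 the fitted log2 difference was 3.39 in IVC (SE 0.49) and -0.71 in the oviduct groups (SE 0.41).

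ENSBTAG00000001987, listed under cytoplasm and phosphoprotein, had the highest Day-2 mean of the genes higher in culture. The Day-2 libraries held 248, 284, 137, 148 and 133 CPM, against 60.4, 78.7 and 41.9 CPM in IVC, 18.0, 13.5 and 15.6 CPM in DRY, and 17.5, 15.8 and 16.6 CPM in LACT. The order Day 2, IVC, oviduct held without overlap between any libraries. Day 4 minus Day 2 came to -3.23 on the log2 scale in the oviduct groups (SE 0.30) and to -1.28 in IVC (SE 0.36).

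Spread between Day-2 pools was wide in part of the members. The coefficient of variation over the 5 Day-2 libraries had a median of 41.2% in the 52 genes (range 9.30% to 193%) and of 61.0% in the 47 genes (range 10.9% to 197%), beside 50.8% over 10563 genes with a Day-2 mean of at least 1 CPM. It was over 100% in 10 and 11 members. In 6 members of each set some Day-2 pool had at most 3 counts while another reached 5 CPM or more. At the other end, the highest and lowest Day-2 library lay within 2-fold in 19 of the 52 genes and 10 of the 47 genes. On Day 4, the coefficient of variation within a group had medians of 11.7% to 17.4% in the genes higher in the oviduct. In those higher in culture the median was 19.7% among IVC libraries, and 44.1% and 42.5% among those of DRY and LACT. The rule asked Day-4 but not Day-2 libraries to keep a gap, which can leave out genes of wide Day-4 spread. Each Day-4 group also holds a library at about the mean of the others. The Day-4 values are therefore not compared with those of Day 2.

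The difference between DRY and LACT was not part of the rule, which treated both as 1 side. The LACT mean exceeded the DRY mean in 25 of the 52 genes higher in the oviduct and in 31 of the 47 genes higher in culture. The share over all genes was not computed. Of the 47 genes, 9 had at most 3 counts in every DRY library and 2 in every LACT library. In those genes the minimum on the lower side fixed the order of DRY and LACT, so nothing is read from these counts of means. In the 9-library test, 2 of the 52 genes were higher in DRY and 0 lower, where 4.01% of the 12069 genes tested were higher and 5.64% lower in DRY. Of the 47 genes higher in culture, 0 were higher and 10 lower in DRY. At an unadjusted p under 0.05, 7 of the 52 and 19 of the 47 genes differed in either direction, as did 27.6% of all genes tested. The DESeq2 Wald test called 4 higher and 1 lower of the 52, and 5 higher and 12 lower of the 47, where it called 8.99% of 12014 genes higher and 12.5% lower. On 6 libraries, edgeR called 0 of the 52 and 3 of the 47, the latter all lower in DRY and all among the 10, where 0.0464% of 10785 genes were higher and 0.454% lower. At an unadjusted p under 0.05 on 6 libraries the numbers were 0 and 10, beside 7.89% of all genes. Without DRY replicate 3 alone 4 members were called in all, and without LACT replicate 3 alone 5, where 2.35% and 2.15% of all genes tested were called in either direction.

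Most of the calls came from genes near 0 in DRY. Of the 12 members called, 8 had at most 3 counts in every DRY library, with LACT means of 1.30 to 12.5 CPM over all 12. Among all 47 genes higher in culture, 9 had at most 3 counts in every DRY library and 2 in every LACT library, whereas none of the 52 genes higher in the oviduct did. The rule set a minimum on the mean over both oviduct groups, which 1 of them can meet alone, so genes near 0 in both were kept out of the set. The 8 members met this minimum through LACT alone and so had to differ between DRY and LACT, and nothing is read from their calls. Of the other 4 members called, 2 were higher and 2 lower in DRY, and 0 of these 4 were called on 6 libraries, where all 3 calls were of members near 0 in DRY.

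ENSBTAG00000010368, listed under endoplasmic reticulum and Golgi membrane, had the lowest FDR and is described without its test, being near 0 in DRY. It held 0.0319, 0.0248 and 0 CPM in DRY, 4.42, 4.01 and 4.77 CPM in LACT, 36.3, 28.5 and 44.4 CPM in IVC, and 24.8, 3.84, 13.6, 25.1 and 6.02 CPM on Day 2. LACT libraries lay close together, far above DRY and below IVC, and 2 counts were found in the 3 DRY libraries together.

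The same order held in ENSBTAG00000003625, at 0, 0.0248 and 0 CPM in DRY, 3.62, 22.1 and 11.8 CPM in LACT, and 209, 366 and 67.0 CPM in IVC. Its Day-2 libraries held 5.47, 18.7, 3.12, 15.7 and 20.4 CPM, which overlapped LACT alone. It is another of the members that met the minimum through LACT alone.

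Both genes higher in DRY were genes higher in the oviduct. ENSBTAG00000006589, listed under ubiquitin-like (Ubl) protein conjugation, was at 24.0, 27.0 and 25.3 CPM in DRY, 10.1, 6.38 and 8.22 CPM in LACT, 2.59, 2.30 and 2.91 CPM in IVC, and 118, 64.1, 133, 78.3 and 65.1 CPM on Day 2. No libraries of any pair of groups overlapped, and Day 2 was highest. DRY exceeded LACT by 1.70 on the log2 scale (SE 0.36, FDR 0.0224), a call lost on 6 libraries (FDR 0.754).

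ENSBTAG00000020054 was at 32.0, 27.3 and 29.3 CPM in DRY, 5.22, 14.6 and 9.82 CPM in LACT, and 1.96, 1.86 and 2.07 CPM in IVC. Day-2 libraries, at 0.792, 0.246, 17.5, 5.10 and 17.5 CPM, spanned IVC and LACT and stayed below DRY. Its log2 difference of 1.72 (SE 0.39, FDR 0.0273) did not pass on 6 libraries (FDR 0.713).

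**Figure D5:**
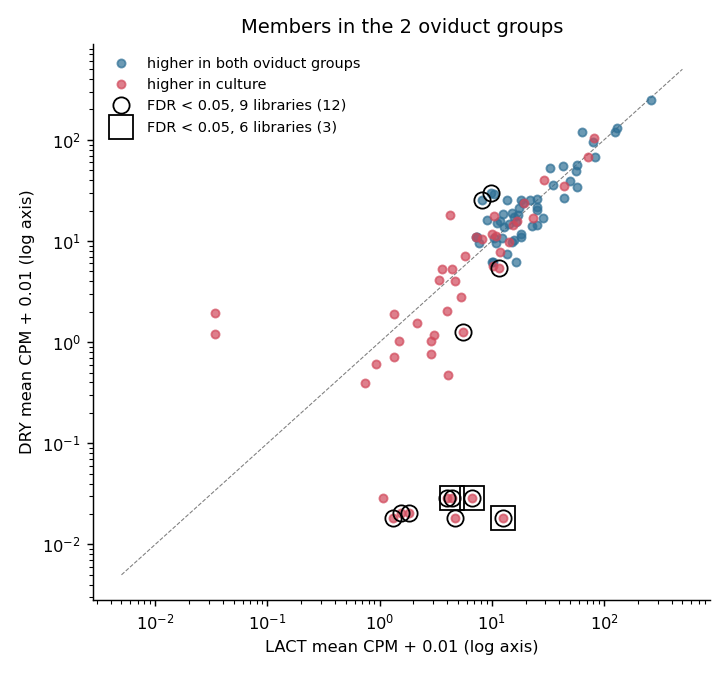
Mean level of the 99 genes in DRY (vertical axis) against LACT (horizontal axis), as CPM + 0.01 on log axes, with the line of equal means dashed, circles around the 12 genes called on 9 libraries and squares around the 3 called on 6. Genes higher in the oviduct lie along the line, while 9 genes higher in culture lie at the bottom, at no more than 3 counts in every DRY library.

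What the products of these genes do could be read for part of the set only, from functional terms that the study listed for genes it had called on these same samples. Those lists name at least 26 of the 52 genes and 22 of the 47, and since they were at hand in shortened form the counts are lower limits without a test. Genes higher in the oviduct were listed most often under nucleus (8), DNA-binding (5), Ubl conjugation (5), and cytoskeleton, isopeptide bond and phosphoprotein (4 each), with 2 zinc-finger genes and 2 of the ciliary basal body. Among genes higher in culture, cytoplasm (4), phosphoprotein (4) and Golgi apparatus (3) were most often named, with 2 each under kinase, ion transport and transmembrane helix and 1 each under endosome and the TFIIK complex, the kinase part of the general transcription factor TFIIH. Phosphoprotein was thus a frequent term in both sets. Cytoplasm was also listed for 3 of the 52 genes, and nucleus for 2 of the 47 genes. Among genes higher in the oviduct, 2 were listed under neutrophil extracellular trap formation, a pathway that holds many histone genes, without being in the histone list used, so histones may remain among the members.

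The contrast that the rule used gave, in the same test, 51 of 52 and 45 of 47 members called in the direction of the rule, with 5.12% of 12069 genes higher and 7.94% lower in the oviduct groups than in IVC. On 6 libraries 1 of the 52 and 9 of the 47 members were called, where 0.176% of 10785 genes were higher and 0.482% lower. Without IVC replicate 1 alone, 52 of the 99 members were called, and 329 of all 11820 genes tested. These counts follow from the selection and nothing is read from them.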

How the data were processed

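RNA-seq was carried out on 14 pools of 5 embryos, with NuGEN Encore Complete libraries and single-end reads. The authors deposited raw counts per Ensembl gene, made with FastQC 0.11.9, Trimmomatic, STAR 2.7.0b on bosTau 9 and featureCounts of Subread 2.0.3, without stated normalization. Whether strand was used in counting, and which gene annotation, is not given in the sources used here, so overlapping genes on opposite strands cannot be told apart. CPM was computed from column totals, and it is not per gene length. Long or abundant genes therefore weigh more in the sums of CPM and in the choice of genes with the highest CPM, which are descriptions. No unmapped column was used.

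Groups came from the labels. Whether Day-2 and IVC pools came from separate cultures is not stated, so that p-values measure only the spread between these pools. Members and lists were chosen with earlier results of these data known. Tests used edgeR 4.0.16 (robust quasi-likelihood, TMM, genes kept if 3 or more libraries in the fit reached 1 CPM, 1 coefficient per group) in R 4.3.3, on 9 Day-4 libraries or all 14, with Benjamini-Hochberg adjustment over all genes tested, called at an FDR under 0.05. The code was tested on simulated data. DESeq2 1.42.0, a likelihood ratio test with observation weights, other scalings, filters and thresholds, a replicate block and leaving libraries out were alternatives, and the fit on 3 Day-2 and 6 Day-4 libraries was added after the data were seen. maSigPro, used by the study for comparisons with Day 2, was not used.

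The IDs printed are, per comparison, at most 2 that were higher and 2 that were lower. They were chosen by widest gap, highest Day-2 mean, highest level on the higher side and lowest FDR of DRY against LACT. The plan had named more genes by each of these, and also the genes at the threshold, so the list is shorter than planned. Of 27607 IDs, 0 could be paired with a symbol, so the planned symbol lists, cell type markers, positions, promoters, proteins and motifs were not analysed here, and no sequence is shown. The histone list held the 12 IDs that shortened term lists name.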

Additional observations from a re-analysis of the deposited data

How the results depend on the processing

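The number of members was 99 and became 234 at 1.5-fold, 35 at 3-fold, and 99 to 184 with single Day-4 libraries left out. Under TMM-scaled CPM it was 114 (87 of them members), with the 10 genes of highest counts left out of the totals 140 (92 members), and with 2 libraries per Day-4 group 100. Leaving libraries out can only keep or widen a gap, so the numbers found that way mostly rise. The middle libraries seldom set the gap, and without 1 of them the number was 99 or 100. Brackets give the number called of all genes tested. Members called in DRY against LACT numbered 12 in edgeR (1165 of 12069) and 22 with the DESeq2 Wald test (2577 of 12014). They were 5 with the replicate block (562 of 12069) and 3 with 2 libraries per Day-4 group (54 of 10785). Single libraries left out gave 4 to 11 members, and 252 to 978 of all genes. The replicate numbers were not taken to pair the samples. For each gene, the deviation of log CPM from the group mean was taken, and these deviations were correlated between libraries of different Day-4 groups. The middle libraries lie near their group mean, which limits what their deviations can show. Correlations of the deviations of same-numbered libraries ran from -0.0248 to 0.139 over 9 pairs. Those of other-numbered libraries ran from -0.0487 to 0.0476 over 18 pairs, so the highest value was in a same-numbered pair. Whether the numbers mark a pairing was not tested. In the other comparisons the block moved no total of members called by over 1.5 times. The genes higher in the oviduct that were called higher in IVC than on Day 2 went from 2 to 4. Over all genes tested, those called higher went from 3979 to 3664. In Day 2 against IVC, 53 to 63 members were called with single libraries left out and 61 with all libraries. Of all genes tested, 6073 to 7266 and 7357 were called. In Day 2 against DRY and LACT the members called were 58 to 66 and 62. There, 7457 to 7896 and 8054 of all genes were called. In oviduct groups against IVC, 96 members were called (1576 of 12069), and 10 with 2 libraries per Day-4 group (71 of 10785). Single libraries left out gave 52 to 97 members, and 329 to 1947 of all genes. DESeq2 size factors moved the median log2 difference of all genes, Day 4 minus Day 2, from 0.08 to 0.24 for IVC and from -0.03 to 0.12 for the oviduct groups, and those of the members in IVC from -2.81 to -2.65 and from 1.66 to 1.82. For the 16 genes of the naming rule, 15 gaps stayed at 2 or more under TMM scaling and 1 (ENSBTAG00000006589) was 1.98. Of the 5 of them called in DRY against LACT, 3 were not called on 6 libraries, and the other 11 were called on neither set. Apart from the number of genes that met the rule with libraries left out, the cause of these shifts was not tested. Depth limits levels under 3 counts, and the middle Day-4 libraries add little spread of their own, so the values on 6 Day-4 libraries are the more cautious ones.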
